A study of Mus musculus with 16 samples.

Results

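The partners of EEF1D in the EEF1 complex and the factors that act beside it in translation elongation were followed through 7 genes, Eef1b2, Eef1g, Eef1a1, Vars, Eef2, Eef1e1 and Eef2k, out of 22392 gene symbols in the count table. Each gene was represented by the 1 of its transcripts with the largest sum over all 16 libraries, and the 7 genes have 25 transcripts in the table. Hepa1-6 is a mouse hepatoma cell line. WT Hepa1-6 cells were compared with 3 clones in which exon 5 of Eef1d was deleted by CRISPR-Cas9 (exon 5 KO clones #1, #2 and #3, here KO1, KO2 and KO3), and no treatment of the cells before lysis is described for any line. The cells that gave the clones were transfected with Cas9 plasmids and selected with puromycin before cloning, steps that are not described for WT cells. Each line was profiled in 2 replicates, by RNA-seq and by ribosome profiling (Ribo-seq) of the same lysate, which gives 8 libraries of each kind. Each KO line is 1 clone grown from a single cell, and clones #1 and #2 were made with a pair of guides that shares only 1 guide with the pair used for clone #3. A difference of 1 clone from WT cells and the effect of exon 5 deletion therefore cannot be told apart in that clone.

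During elongation, EEF1A carries aminoacyl-tRNA to the ribosome as a complex with GTP, and the EEF1B complex recharges it by exchanging GDP for GTP. EEF1B2 and EEF1D are the exchange factors of EEF1B, EEF1G is the scaffold subunit, and VARS, the valyl-tRNA synthetase, is bound to the complex. EEF2 moves the ribosome along the mRNA by 1 codon after each peptide bond, EEF2K is the kinase that inactivates EEF2, and EEF1E1 (AIMP3) is a scaffold protein of the multisynthetase complex. EEF1A and EEF2 are among the most abundant proteins of mammalian cells, and the mRNAs of many elongation factors begin with a run of pyrimidines that makes their translation responsive to mTOR.

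In the GRCm38 assembly with the GENCODE annotation, Eef1b2 lies on chromosome 1 (63176825 to 63180486, plus strand), Eef1g on chromosome 19 (8967041 to 8978479, plus strand), Eef1a1 on chromosome 9 (78478449 to 78489151, minus strand), and Vars on chromosome 17 (35000987 to 35016322, plus strand). Eef2 lies on chromosome 10 (81176631 to 81182498, plus strand), Eef1e1 on chromosome 13 (38644207 to 38659058, minus strand), and Eef2k on chromosome 7 (120842831 to 120907450, plus strand). The encoded proteins have 225 (Eef1b2), 437 (Eef1g), 462 (Eef1a1), 1263 (Vars), 858 (Eef2), 174 (Eef1e1) and 724 (Eef2k) amino acids. RefSeq transcript starts on GRCm38.p6 were found for 5 of the 7 genes. Eef1g and Vars are named only. The bases around the RefSeq start of 3 of them are shown because a start with pyrimidines is the feature for which many of these mRNAs are known. For Eef1a1 the RefSeq start lies 7427 bases from the annotated start of the gene, and its window is not shown. The RefSeq start is the annotated start of the gene for Eef2, and lies 6 bases from it for Eef1b2 and 30 for Eef1e1. Distances to the start of the counted transcript were not measured. Each window has 30 bases of the transcribed strand, from 5 bases before the RefSeq start, and capitals mark the longest run of at least 5 pyrimidines that opens with C:
Eef2 (chr10:81176626-81176655, plus strand): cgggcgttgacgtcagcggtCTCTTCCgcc
Eef1e1 (chr13:38659004-38659033, minus strand): agctgtgcaggccccgCCTCCCTaggagct
Eef1b2 (chr1:63176826-63176855, plus strand): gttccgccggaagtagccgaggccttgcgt
Eef2 and Eef1e1 had runs of 7 bases, and 12.3% of the 32851 RefSeq promoters held a run of at least that length in the same window. Neither of these runs opens the RefSeq transcript, and both lie further inside it. Eef1b2 had none of 5 or more. Eef2k, whose windows are not shown, had none either, with longest runs of 4, 4 and 3 bases at its RefSeq starts. Runs of at least those lengths were held by 55.43%, 55.43% and 78.25% of the promoters. The window of Eef1a1 that is not shown had a run of 10 bases, a length reached by 3.44% of the promoters. These are matches of letters on 1 strand, not measured start sites.

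With 1 transcript per gene, RNA-seq libraries held 10493030 to 12946819 counts and Ribo-seq libraries 1138943 to 4886753. Replicates 1 and 2 of KO1 were the largest and the smallest Ribo-seq library, so that footprint values of KO1 replicate 2 rest on the fewest counts. The labels fit the edited gene: the Eef1d transcript with exon 5 had more counts than the short transcript without it in all 4 WT libraries and fewer in all 12 libraries of the clones. All 8 hepatocyte and hepatoma markers had counts in WT RNA-seq, with a summed level of 2360.3 and 2537 CPM, which are counts scaled to the TMM-normalised library size. That sum was 929 in both libraries of KO1, 1837 and 1966 for KO2 and 3497 and 3665 for KO3. The sum follows its most abundant genes. Of all genes tested in RNA, 46.7%, 20.4% and 45.4% were called in KO1, KO2 and KO3, with 2836, 1015 and 2551 falls. The 6 hepatocyte markers tested in RNA had a median change of -1.45, -0.30 and -0.49 on the log2 scale. Of them, 6 fell in KO1, 4 fell and 1 rose in KO2, and 4 fell and 2 rose in KO3. Those that passed in all 3 clones were Alb (-1.51, -0.62 and 1.25 for KO1, KO2 and KO3) and Afp (-1.04, -0.33 and 0.65), the only markers that rose in KO3, Apob (-0.80, 0.60 and -0.99), Trf (-1.75, -0.28 and -0.62) and Fgb (-1.40, -2.43 and -0.72). The part of this difference between lines in the values of the 7 genes was not tested. Among markers of other cell types, the 3 fibroblast markers summed to between 713.9 and 1103 CPM over the 8 RNA-seq libraries, nearly all of it from Dcn (RNA changes of -0.14, -0.26 and 0.23, all passing), the 3 leukocyte markers to between 2.54 and 6.37 with Adgre1 at 0, and the 2 endothelial markers to between 0.0793 and 2.27, with Pecam1 lower in all 3 clones (-1.26, -1.49 and -2.32). In bulk lysates of a cell line, fewer cells with a transcript and less of it per cell cannot be told apart.

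Levels between genes were compared in WT cells as counts per counted codon, scaled as TPM is, to the same sum over all genes in each library. On this scale, footprints of Eef1a1 stood at 3136 in replicate 1 and 3156 in replicate 2. Eef2 followed with 976.9 and 966.3, Eef1b2 with 943.1 and 909.6, and Eef1g with 877.5 and 901.8. Eef1e1 had 147.9 and 163.9, Vars 73.5 and 77.2, and Eef2k 1.56 and 1.05. The ranges of neighbours in this order did not overlap, but Eef2, Eef1b2 and Eef1g lay close together, and with 2 replicates these gaps were not tested. Eef1a1, Eef2, Eef1b2 and Eef1g were at the 99.6th, 98th, 97.9th and 97.8th percentile of 9634 genes for footprints per codon. Vars was at the 82nd percentile and Eef1e1 at the 90.6th, and Eef2k had fewer than 10 counts in at least 1 WT library and was given none.

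**Figure D1:**
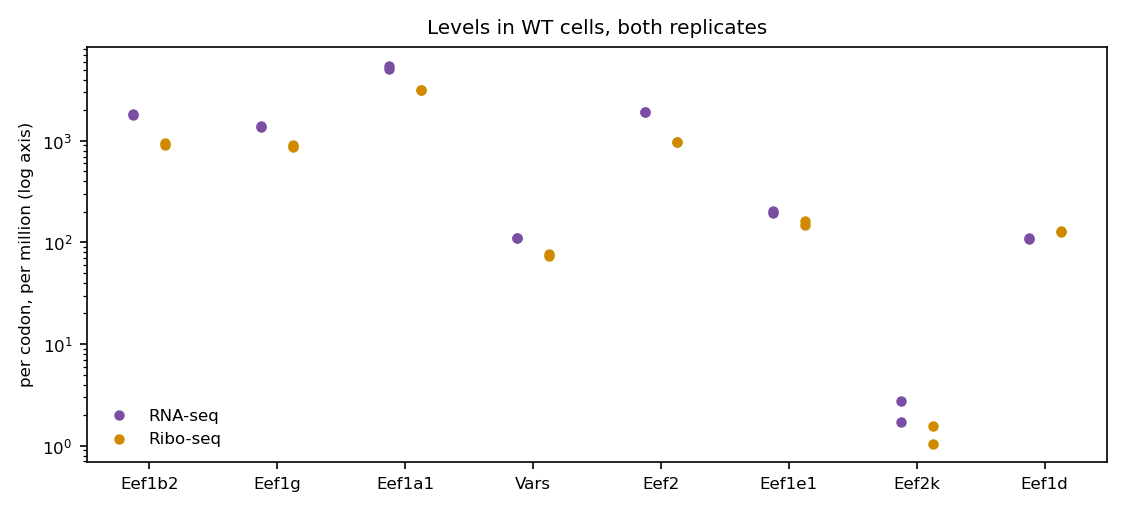
Counts per counted codon in the 2 WT replicates, scaled to the same sum over all genes as TPM is, for RNA-seq and Ribo-seq (vertical axis on a log scale), by gene. Eef1d is drawn by its long transcript of 543 counted codons, few of whose counts fall in the part it does not share with the short one. Points are libraries; Eef1a1 is highest in both assays, Eef2, Eef1b2 and Eef1g lie together below it, and Eef2k is lowest.

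Translation efficiency (TE) is the ratio of footprints to RNA, here as log2 of CPM over CPM. In WT cells the mean log2 TE was -0.67 ± 0.10 for Eef1b2, -0.35 ± 0.03 for Eef1g, -0.45 ± 0.09 for Eef1a1, -0.26 ± 0.02 for Vars, -0.69 ± 0.06 for Eef2 and -0.05 ± 0.11 for Eef1e1 (SD, n = 2). The median over 9634 genes was -0.15. All of these but Eef1e1 lay below this median, with Eef2 and Eef1b2 at the 25.7th and 26.5th percentile, while Eef1d, with 0.52 ± 0.06 (SD, n = 2), was at the 84.5th. Reads from some of these genes may fit other places in the genome. Of all 30-base windows of the coding sequence, 95.1% in Eef1g, 88.7% in Eef1a1, 29% in Eef2, 24.7% in Eef1b2 and 18.6% in Eef1d had an identical copy elsewhere in GRCm38, against 1.37% in Vars and 0% in Eef1e1 and Eef2k. The study's summary of its reads names uniquely mapped reads, but whether reads that fit several places entered the deposited counts is not given in the sources used here. Levels and ratios between genes are therefore less certain than changes of 1 gene between lines.

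For the EEF1B subunits, RNA of Eef1b2 rose in KO1, footprints of Eef1b2 rose in KO2 and fell in KO3, and footprints of Eef1g fell in KO3. RNA and footprints of Vars rose in KO1. Eef1b2 RNA stood at 1239 and 1264 CPM in the 2 WT libraries, 1492 and 1553 for KO1, 1352 and 1329.9 for KO2 and 1217 and 1174 for KO3. Both KO1 and both KO2 libraries lay above WT cells and both KO3 libraries below. The change was 0.28 on the log2 scale in KO1 (SE 0.0388, edgeR adjusted p = 2.11e-08), 0.10 in KO2 (adjusted p = 0.106) and -0.07 in KO3 (adjusted p = 0.188). Footprints of Eef1b2 had another order, with 817.7 and 757.6 CPM in WT cells, 806 and 773.8 for KO1, 977.4 and 902.6 for KO2 and 703.4 and 680.1 for KO3. KO1 overlapped with WT cells, KO2 lay above and KO3 below. Footprints changed by 0.25 in KO2 (SE 0.0639, edgeR adjusted p = 0.00728) and by -0.20 in KO3 (SE 0.0607, adjusted p = 0.00915), while the value in KO1 was -0.0042 (adjusted p = 0.974). The call in KO2 was lost without WT replicate 2 (0.20, adjusted p = 0.161) or KO2 replicate 1 (0.19, adjusted p = 0.0891), and that in KO3 without WT replicate 1 (-0.14, adjusted p = 0.221) or KO3 replicate 2 (-0.18, adjusted p = 0.0661), all from edgeR. DESeq2 called neither of them (adjusted p = 0.0777 in KO2 and 0.1 in KO3), and with libraries thinned to 1 depth edgeR gave 0.17 in KO2 (adjusted p = 0.228).

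Eef1g RNA was 1890.0 and 1929 CPM in WT cells, 2041 and 2211 for KO1, 1825 and 1909 for KO2 and 1800.2 and 1797 for KO3. Both KO1 libraries were above WT cells and both KO3 libraries below, and KO2 overlapped. RNA rose by 0.15 on the log2 scale in KO1 (SE 0.0381, edgeR adjusted p = 0.00069), a call that was lost without WT replicate 1 (0.14, adjusted p = 0.0637) and whose value moved to 0.10 without KO1 replicate 2. It was -0.03 in KO2 and -0.09 in KO3, and neither passed (edgeR adjusted p = 0.688 and 0.06). Eef1g footprints were 1508 and 1488 CPM in WT cells, 1581 and 1450.0 for KO1, 1604 and 1406 for KO2 and 1269.9 and 1207 for KO3. They fell in KO3, where both libraries were below WT cells, by 0.29 on the log2 scale (SE 0.0596, edgeR adjusted p = 0.000196). With 0.01 in KO1 and 0.01 in KO2 they did not pass in the other clones (edgeR adjusted p = 0.922 and 0.965), where the 95% interval of the change was -0.11 to 0.14 and -0.12 to 0.13.

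Vars RNA was 448.8 and 444 CPM in WT cells, 575.9 and 544.8 for KO1, 483.2 and 493.8 for KO2 and 497.5 and 489.9 for KO3. All 6 libraries of the clones were above WT cells. The rise was 0.33 on the log2 scale in KO1 (SE 0.046, edgeR adjusted p = 3.26e-08) and 0.14 in KO3 (SE 0.0485, adjusted p = 0.011), and the value in KO2 was 0.13 (adjusted p = 0.0669). The call in KO3 was lost without WT replicate 1 (0.15, edgeR adjusted p = 0.0716) or replicate 2 (0.14, adjusted p = 0.122). Footprints of Vars were 369.8 and 373.2 CPM in WT cells, 507.1 and 462.5 for KO1, 421.1 and 384.4 for KO2 and 375.2 and 331.4 for KO3. KO1 and KO2 were above WT cells and KO3 overlapped. Only the change in KO1 passed, with 0.39 on the log2 scale (SE 0.0698, edgeR adjusted p = 1.74e-05), against 0.12 in KO2 and -0.08 in KO3 (adjusted p = 0.277 and 0.394).

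The edited subunit itself is set beside them. By its largest transcript, which has a long N-terminal part and no exon 5, Eef1d RNA changed by -0.08, 0.10 and -0.53 on the log2 scale for the clones in order, and only KO3 passed (edgeR adjusted p = 0.272, 0.266 and 1.1e-11). By the transcript with the most footprints, also a long one, which holds exon 5 and so counts the deleted bases, RNA also passed in KO1 (-0.45, edgeR adjusted p = 2.42e-10) and KO2 (-0.28, adjusted p = 0.000783). Eef1d footprints fell in KO1 (-0.32, edgeR adjusted p = 0.00104) and in KO3 (-0.66, adjusted p = 1.63e-09), and were 0.07 in KO2 (adjusted p = 0.621). In KO1 the footprint call was lost without WT replicate 1 (-0.28, edgeR adjusted p = 0.0654) and by DESeq2 (adjusted p = 0.0825).

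The proportions of the subunits were read as ratios of counts per codon within a library, with Eef1g as the denominator, which need no scaling between libraries. Each ratio was compared among the 4 lines by the exact permutation test over all 105 ways to split the 8 libraries of an assay into 4 pairs, with the share of the variance between lines as the statistic. The smallest p of this test is 0.00952, and 13 ratios were tested. In WT cells, Eef1b2 had 1.07 and 1.01 footprints per codon for each of Eef1g. The ratio was 1.01 and 1.06 for KO1, 1.21 and 1.27 for KO2 and 1.10 and 1.12 for KO3, so KO1 overlapped with WT cells and the other clones lay above. Among the 4 lines this ratio did not pass after adjustment (exact permutation p = 0.0476, adjusted p = 0.0619). It passed with Eef1a1 or Vars as the denominator (exact permutation p = 0.019 for each), and the latter was chosen after the data were seen.

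Eef1d footprints per codon, by the short transcript without exon 5, were 0.316 and 0.306 of those of Eef1g in WT cells. They were 0.244 and 0.252 for KO1, 0.314 and 0.34 for KO2 and 0.253 and 0.226 for KO3. KO1 and KO3 lay below WT cells and KO2 overlapped. With the long transcript, as in the tests between lines, the ratio was 0.147 and 0.142 in WT cells. It has 543 counted codons against 248, while its WT footprint counts were 1002 and 647 against 987 and 638. Few counts of the long transcript thus fall in its added codons, which lowers its ratio. Its footprint ratio did not pass among the 4 lines (exact permutation p = 0.0667, adjusted p = 0.0788), while its RNA ratio did (exact permutation p = 0.00952, adjusted p = 0.0248). With the transcript that holds exon 5, the footprint ratio had an exact permutation p of 0.0286 and passed, but that transcript counts the deleted exon. The transcripts without exon 5 in turn leave out the reads that WT cells have on it.

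Vars had 0.0837 and 0.0856 footprints per codon for each of Eef1g in WT cells, 0.109 and 0.109 for KO1, 0.0896 and 0.0933 for KO2 and 0.101 and 0.0937 for KO3. All 6 libraries of the clones were above both WT libraries. How often ratios of other genes to Eef1g lay apart in this way was not counted. For Vars the lines differed (exact permutation p = 0.00952, adjusted p = 0.0248). With Eef1a1 as the denominator this difference no longer passed (exact permutation p = 0.0476). The RNA ratio of Vars to Eef1g was also above WT cells in all 6 libraries, from 0.0841 to 0.0963 against 0.0811 and 0.0786, but did not pass (exact permutation p = 0.162).

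**Figure D2:**
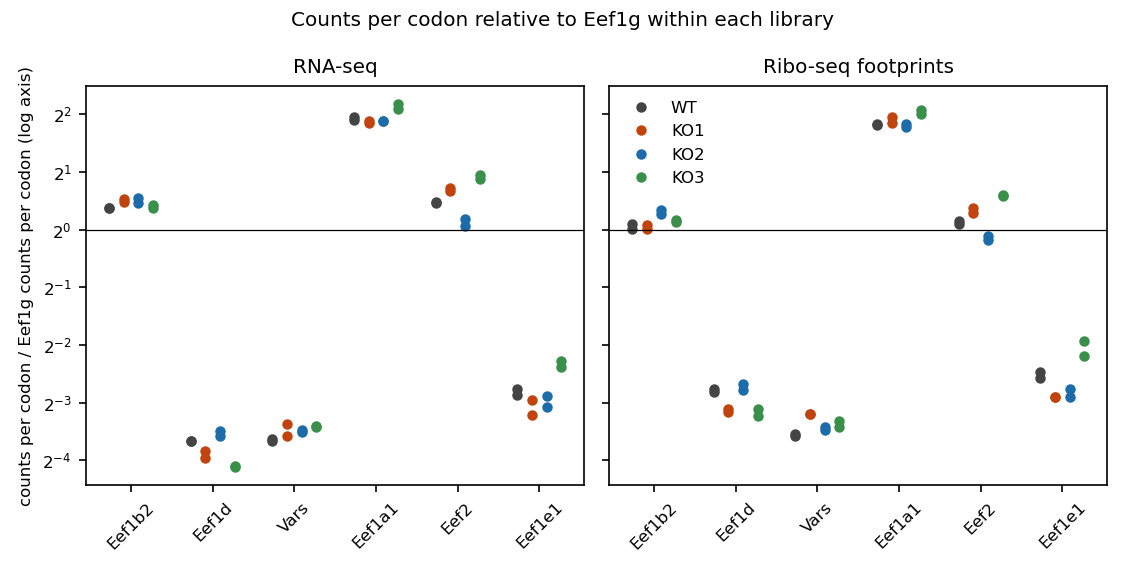
Counts per codon of 6 genes divided by those of Eef1g in the same library (vertical axis on a log scale to base 2), in RNA-seq and Ribo-seq. Eef1d is drawn by its long transcript, which lies lower than its short one would. Each point is a library, with 2 for each line; footprints of Eef2 to Eef1g are lowest in KO2 and highest in KO3, and Eef1b2 footprints lie near those of Eef1g in WT cells and KO1.

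Eef2 was the 1 member whose RNA and footprints changed in all 3 clones, and the direction was not shared. Eef2 RNA was 5222 and 5260.4 CPM in WT cells, 6665 and 6945 for KO1, 3783 and 4291 for KO2 and 6545 and 6852 for KO3. It was higher in both libraries of KO1 and KO3 and lower in both libraries of KO2. The changes were 0.38 in KO1 (SE 0.0321, edgeR adjusted p = 1.21e-14), -0.37 in KO2 (SE 0.0442, adjusted p = 1.32e-06) and 0.35 in KO3 (SE 0.0344, adjusted p = 5.64e-15) on the log2 scale. Footprints of Eef2 were 3329 and 3164 CPM in WT cells, 4054 and 3527 for KO1, 2817 and 2586 for KO2 and 3789 and 3620.4 for KO3. They followed the RNA in direction, with 0.22 in KO1 (SE 0.0667, edgeR adjusted p = 0.0114), -0.26 in KO2 (SE 0.0622, adjusted p = 0.004) and 0.18 in KO3 (SE 0.0607, adjusted p = 0.022). Each of these footprint calls was lost without 1 library: in KO1 without WT replicate 2 (0.18, edgeR adjusted p = 0.0893) or KO1 replicate 1 (0.11, adjusted p = 0.399), in KO2 without WT replicate 1 (-0.23, adjusted p = 0.12) or KO2 replicate 2 (-0.21, adjusted p = 0.0545), and in KO3 without WT replicate 2 (0.15, adjusted p = 0.174) or KO3 replicate 1 (0.15, adjusted p = 0.135). As a ratio within the library, Eef2 had 1.11 and 1.07 footprints per codon for each of Eef1g in WT cells, 1.29 and 1.23 for KO1, 0.886 and 0.927 for KO2 and 1.5 and 1.51 for KO3. No line overlapped with another, and the lines differed in footprints and in RNA (exact permutation p = 0.00952 and adjusted p = 0.0248 for each).

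Eef1a1, which brings the aminoacyl-tRNA, moved little. Its RNA was between 7111 and 8665 CPM over the 8 libraries and its footprints between 5292 and 6007. RNA rose by 0.10 on the log2 scale in KO1 (SE 0.0351, edgeR adjusted p = 0.0174) and by 0.12 in KO3 (SE 0.034, adjusted p = 0.00259), and was -0.07 in KO2 (adjusted p = 0.181). The call in KO1 was lost without WT replicate 1 (0.05, edgeR adjusted p = 0.463) or KO1 replicate 2 (0.02, adjusted p = 0.685), and moved to 0.18 without KO1 replicate 1. DESeq2 did not call it (adjusted p = 0.146), nor did edgeR in 1 fit of all RNA-seq libraries (adjusted p = 0.0611). In KO3 it was lost without WT replicate 1 (0.08, edgeR adjusted p = 0.162), and the value was also 0.08 without KO3 replicate 2. Footprints of Eef1a1 did not pass in any clone, with 0.08, -0.02 and -0.07 on the log2 scale for KO1, KO2 and KO3 (edgeR adjusted p = 0.407, 0.913 and 0.387). Their 95% intervals ran from -0.05 to 0.20, -0.14 to 0.11 and -0.19 to 0.05. Against Eef1g within a library, Eef1a1 footprints per codon were 3.57 and 3.50 in WT cells and 4.0 and 4.20 in KO3, with all other libraries between 3.41 and 3.86 (exact permutation p = 0.0381, adjusted p = 0.055).

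**Figure D3:**
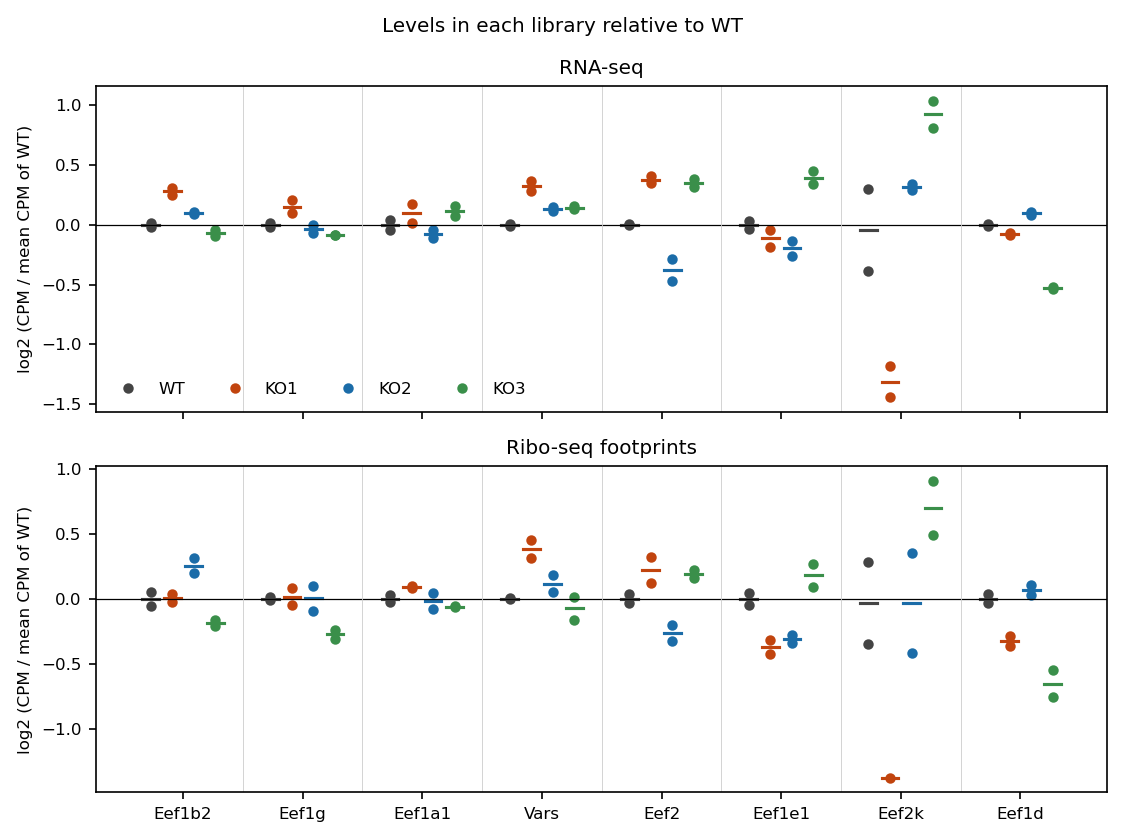
Level of each gene in every library as log2 of CPM over the mean CPM of the 2 WT libraries, for RNA-seq (top) and Ribo-seq (bottom). Points are libraries and short bars their mean; the Eef2k footprint count of 0 in KO1 replicate 2 is not drawn, Eef2 lies above WT cells in KO1 and KO3 and below in KO2 in both assays.

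Eef1e1, the scaffold protein of the multisynthetase complex, had lower footprints in KO1 and KO2 and higher RNA in KO3. Eef1e1 footprints were 98 and 104.3 CPM in WT cells, 81.1 and 75.2 for KO1, 83.1 and 80.0 for KO2 and 107.7 and 121.7 for KO3. Both libraries of KO1 and KO2 were below WT cells and both of KO3 above. The changes were -0.35 in KO1 (SE 0.104, edgeR adjusted p = 0.00832) and -0.30 in KO2 (SE 0.0958, adjusted p = 0.036), and 0.17 in KO3 did not pass (adjusted p = 0.165). The call in KO1 was lost without WT replicate 2 (-0.31, edgeR adjusted p = 0.0891) or KO1 replicate 1 (-0.43, adjusted p = 0.0821). In KO2 it was lost without any 1 of the 4 libraries, with values from -0.35 to -0.26 and edgeR adjusted p from 0.0797 to 0.188. DESeq2 called neither (adjusted p = 0.321 in KO1 and 0.614 in KO2). Eef1e1 RNA was 106.9 and 102.3 CPM in WT cells, 101.6 and 92.1 for KO1, 95.4 and 87.5 for KO2 and 142.7 and 132.7 for KO3. It rose in KO3 by 0.40 on the log2 scale (SE 0.0677, edgeR adjusted p = 7.6e-07), and was -0.11 in KO1 and -0.19 in KO2 (adjusted p = 0.202 and 0.0737). Its footprint ratio to Eef1g was 0.169 and 0.182 in WT cells, between 0.133 and 0.148 in KO1 and KO2, and 0.22 and 0.261 in KO3 (exact permutation p = 0.019, adjusted p = 0.0413).

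Eef2k, the kinase of EEF2, was the lowest of the 7 genes and had the largest RNA changes among them in KO1 and KO3. Its RNA-seq counts were 43 and 74 in WT cells, 26 and 20 for KO1, 69 and 77 for KO2 and 113 and 128 for KO3. RNA fell in KO1 by 1.30 on the log2 scale (SE 0.317, edgeR adjusted p = 0.00057) and rose in KO3 by 0.92 (SE 0.213, adjusted p = 0.000216), with 0.31 in KO2 (adjusted p = 0.423). The call in KO1 was lost without WT replicate 2 (-0.92, edgeR adjusted p = 0.0855). As a ratio to Eef1g in RNA per codon, Eef2k also differed among the lines (exact permutation p = 0.00952, adjusted p = 0.0248). Footprint counts of Eef2k were 16 and 7 in WT cells, 7 and 0 for KO1, 11 and 14 for KO2 and 21 and 22 for KO3. In KO1 they did not pass the filter on low counts, and neither KO2 (-0.09, edgeR adjusted p = 0.937) nor KO3 (0.62, adjusted p = 0.224) passed the test. The 95% intervals of the footprint change were wide, from -0.94 to 0.77 in KO2 and from -0.12 to 1.35 in KO3.

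These calls are to be read against all genes. In RNA, 6 of 7 members were called in KO1, 1 of 7 for KO2 and 5 of 7 for KO3, while 46.7%, 20.4% and 45.4% of all genes tested were called. In footprints, 3 of 6, 3 of 7 and 3 of 7 members were called, while 26.9%, 11.7% and 30.6% of all genes were. How many of all genes had clone libraries apart from WT cells was counted for TE only. For RNA and footprints, such gaps of members have no share over all genes beside them. The median RNA change of the members was 0.15, -0.03 and 0.14 on the log2 scale and their median footprint change 0.05, -0.02 and -0.07, and the median over all genes was 0.00 in each of these comparisons. The 76 ribosomal protein genes, whose mRNAs are known for the same pyrimidine starts, had a median RNA change of 0.10, -0.06 and 0.05 and a median footprint change of 0.00, 0.05 and 0.00. The comparisons of the 3 clones share the WT libraries.

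For TE, none of the 7 members passed in any clone by edgeR's test without a block. That test does not use the lysate shared by the RNA-seq and Ribo-seq library of a replicate. In this test 0.0942%, 0.0173% and 0.104% of all genes were called in KO1, KO2 and KO3. At an unadjusted p under 0.05 it was 1 of 7 members for KO1, 0 of 7 for KO2 and 4 of 7 for KO3, against 7.08%, 4.28% and 6.07% of all genes. DESeq2 called 1 member, Eef1b2 in KO1 (adjusted p = 0.0435). Eef1b2 also passed in KO1 with the lysate as a block (edgeR adjusted p = 0.0116) and with the replicate block given below. The median TE change of the members was -0.15, 0.04 and -0.19 in the order of the clones on the log2 scale, and that of all genes 0.02, 0.00 and -0.01. The ribosomal protein genes had -0.09, 0.12 and -0.04. The standard errors of the members' TE changes were from 0.0657 to 0.122 without Eef2k, and from 0.465 to 0.764 for Eef2k.

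Eef1b2 had the smallest p of the members in KO1. Its log2 TE was -0.60 and -0.74 in WT cells, -0.89 and -1.0 for KO1, -0.47 and -0.56 for KO2 and -0.79 and -0.79 for KO3. Both libraries of KO1 and KO3 were below WT cells, as for 17.6% and 19.5% of genes with a TE in these libraries. Both of KO2 were above, as for 17.7%. The change was -0.28 in KO1 (SE 0.0744, edgeR adjusted p = 0.265), 0.15 in KO2 (SE 0.0817, adjusted p = 1) and -0.13 in KO3 (SE 0.073, adjusted p = 0.854). With the replicate number as a block in each assay, the change in KO1 was -0.29 and passed (edgeR adjusted p = 0.00215), among 58 genes called in place of 11. Under this block no member passed in KO2 or KO3.

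In KO3, the TE changes of the 7 members lay between -0.29 for Eef2k and -0.13 for Eef1b2, where 52.5% of all genes tested had a change below 0. The value of Eef2k turned to 0.41 without WT replicate 1 and was -0.91 without WT replicate 2. The values were -0.19 for Eef1g (95% interval -0.33 to -0.06), -0.19 for Eef1a1 (-0.32 to -0.06), -0.22 for Vars (-0.38 to -0.06), -0.17 for Eef2 (-0.30 to -0.04) and -0.22 for Eef1e1 (-0.45 to 0.00). The edgeR adjusted p-values of the 7 were between 0.528 and 0.965. For 5 members, Eef1b2, Eef1g, Eef1a1, Vars and Eef2, both KO3 libraries were below both WT libraries, as they were for 19.5% of 11014 genes with a TE in these libraries. In KO1 the values other than Eef1b2 ran from -0.44 for Eef2k to 0.07 for Vars, and in KO2 from -0.39 for Eef2k to 0.15 for Eef1b2.

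**Figure D4:**
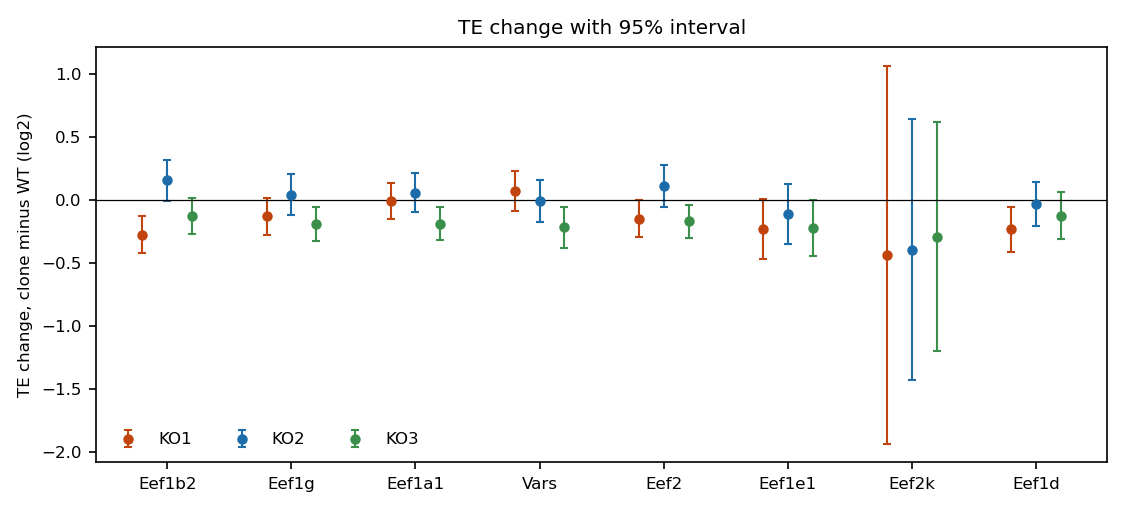
TE change of each gene, clone minus WT cells on the log2 scale, with the 95% interval from the standard error of edgeR's fit, for KO1, KO2 and KO3. In KO3 the 7 members and Eef1d lie below 0 (above it: Eef2k without WT replicate 1, and Eef1d by its transcript of most footprints). The intervals of Eef1b2 in KO1 and of Eef1g, Eef1a1, Vars and Eef2 in KO3 exclude 0. None of these changes passed after adjustment in edgeR's test without a block. The intervals of Eef2k are the widest.

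Whether the clones differ from each other was tested directly, as equality of the 3 changes in 1 fit of all libraries. RNA differed among the clones for 7 of 7 members, while 74% of all genes did, and footprints for 6 of 7, while 59.5% of all genes did. Eef1a1 was the exception in footprints (edgeR adjusted p = 0.0768), and it passed with the replicate block (adjusted p = 0.0322) and narrowly with DESeq2's size factors (adjusted p = 0.04997). TE differed for 1 of 7, Eef1b2 (edgeR adjusted p = 0.00314), while 1.03% of all genes did. With the replicate block, TE also differed for Eef2 (edgeR adjusted p = 0.00617) and Eef1a1 (adjusted p = 0.0423), and the number of genes was 247 in place of 123.

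Among the other genes of elongation, the ER proteins that hold EEF1D at the membrane were given for their own sake. Ktn1, kinectin 1, fell in KO3 in RNA (-0.31, edgeR adjusted p = 0.000394) and in footprints (-0.46, adjusted p = 0.000298). Rrbp1, the ribosome-binding protein of the ER, fell in KO1 in footprints (-0.46, edgeR adjusted p = 7.75e-06), rose in KO3 in RNA (0.29, adjusted p = 1.49e-05) and had footprints of 0.01 in KO3 (adjusted p = 0.967). In the multisynthetase complex, 1 of 10 genes rose and 3 fell in RNA in KO1, 4 rose and 0 fell in KO2, and 8 rose and 0 fell in KO3, to be set beside the 46.7%, 20.4% and 45.4% of all genes called in either direction. In footprints 1 of the 10 rose and 2 fell in KO1, and 3 rose and 0 fell in each of KO2 and KO3, beside 26.9%, 11.7% and 30.6%. Eprs, its glutamyl-prolyl-tRNA synthetase, rose in RNA in all 3 clones, by 0.12, 0.34 and 0.17 (edgeR adjusted p = 0.0329, 3.02e-05 and 0.0019). Iars, the isoleucyl-tRNA synthetase, fell in KO1 (-0.16) and rose in KO2 (0.31) and KO3 (0.23; edgeR adjusted p = 0.0124, 0.000331 and 0.000274). Of 7 diphthamide enzymes, which build the modified histidine of EEF2, 1 rose in RNA in KO3. Of the 5 methyltransferases of EEF1A and EEF2 that were tested, 1 rose and 2 fell in RNA in KO1, 1 rose in KO2, and 1 rose and 1 fell in KO3. Of the 5 mitochondrial elongation factors, 1 rose and 1 fell in RNA in KO1, and 2 rose and 1 fell in KO3. Among the 5 factors of termination, rescue and recycling, the calls were 1 and 2 for KO1, 1 and 2 for KO2 and 2 and 0 for KO3, for rises and falls. The inputs of EEF2K, 7 genes, had 2 rises and 1 fall in KO1, 1 fall in KO2 and 4 falls in KO3. Of 2 other elongation factors tested, 2 rose in RNA in KO1, 0 were called in KO2 and 2 fell in KO3. In footprints 1 of these 2 rose in KO1, 0 were called in KO2 and 1 fell in KO3. The calls of each of these lists are to be read beside the same shares of all genes called. These were 46.7%, 20.4% and 45.4% in RNA and 26.9%, 11.7% and 30.6% in footprints. The 1 listed ligand of EEF1D rose in RNA in KO3 and fell in footprints in KO1.

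The genes whose footprint profile was most like that of a member were found by Pearson's r of log2 CPM over the 8 Ribo-seq libraries, among 2203 genes with at least 100 footprints in every library. The r is a description over libraries in which each line is present as 2 replicates. For Eef1b2 these were Nifk (0.983), Aldh9a1 (0.98) and Sec31a (0.975), and for Eef1g Mdn1 (0.97), Tsr1 (0.962) and Rad18 (0.951). Ipo4 (0.957), Nxf1 (0.947) and Ccnb1 (0.94) were most like Eef1a1, and Kdelr2 (0.976), Atp5g1 (0.96) and Alad (0.959) most like Vars. Eef2 had Ergic3 (0.98), Tuba1b (0.974) and Aimp2 (0.973). Eef1e1 and Eef2k had fewer than 100 footprints in at least 1 library and were left out.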

How the data were processed

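RNA-seq and Ribo-seq were made from WT Hepa1-6 cells and 3 Eef1d exon 5 KO clones, with 2 replicates of each, 16 libraries in all. The authors trimmed reads with fastp 0.21.0, removed noncoding RNA, aligned the rest to mm10 with STAR 2.7.0a and deposited whole-number counts per transcript at the A-site, without normalization and without 5 codons at each end of the coding sequence, for 67139 transcripts. The labels of the RNA-seq libraries give polyA RNA, and the methods give rRNA depletion, which was not settled here and bears on RNA and TE. A read is counted on every transcript it fits, so the transcript with the largest sum over the 16 columns stood for each gene, in place of all transcripts.

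Counts were fitted in R 4.3.3 with edgeR 4.0.16 (quasi-likelihood test, TMM within each assay, filterByExpr, Benjamini-Hochberg over all genes tested, called at an adjusted p under 0.05). TE change was the genotype-by-assay interaction term. SE is the estimate over the root of F, and 95% intervals are normal approximations from it. The edgeR fits, and not the permutation test, were run on simulated counts with known changes and a fixed spread. Of 100 genes with a change of 1 on the log2 scale, RNA fits called 98, 99 and 94 in KO1, KO2 and KO3. Footprint fits called 94, 94 and 96 of 100, and TE fits 53, 66 and 64 of 100. Changes smaller than 1 were not simulated. DESeq2 1.42.0 (likelihood ratio test, as in the study's methods) and the other settings of the closing section were alternatives. Depth was 1138943 to 4886753 counts per Ribo-seq library and 10493030 to 12946819 per RNA-seq library, and counting error is larger for low genes such as Eef2k. p-values measure the spread between 2 replicates of a clone.

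Replicate numbers were checked by the correlation between lines of the difference of replicates. In Ribo-seq every pair of lines had r over 0.1 (0.159 to 0.245), while in RNA-seq r ran from 0.0247 to 0.296. Replicate 1 was the deeper Ribo-seq library in every line, and the part of depth in r was not tested. The main tests used no block, and the replicate number was a block only in an alternative. Both kinds of library of 1 replicate share a lysate (r 0.151 to 0.359). The members, gene lists, rules and alternatives were chosen with earlier results of these data known. All members and Eef1d are named. Other genes of the pathway and marker lists are named if they are Ktn1 or Rrbp1 or if they passed for 1 measure in all 3 clones, and genes of the whole table if they are among the 3 most alike profiles of a member. Adgre1 was named after its values were seen.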

Additional observations from a re-analysis of the deposited data

Results flagged for a closer look

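Results below stand out because the changes in KO1, KO2 and KO3, taken against the same WT libraries, differed from each other in edgeR's test of equality of the 3 changes, with p-values adjusted over all genes. In RNA, the adjusted p was 9.85e-18 for Eef2, 4.02e-09 for Eef1e1, 1.49e-08 for Eef2k, 1.14e-07 for Eef1b2, 2.97e-05 for Eef1g, 0.000217 for Eef1a1 and 0.00109 for Vars. In footprints, the edgeR adjusted p was 1.55e-08 for Eef2, 4.87e-07 for Eef1b2, 1.62e-06 for Vars, 6.26e-06 for Eef1e1, 0.000147 for Eef1g and 0.00094 for Eef2k. In TE it was 0.00314 for Eef1b2. Such differences among clones were common in these libraries, with 74% of genes in RNA and 59.5% in footprints, and rare in TE, with 1.03%. Eef2 RNA changed by 0.38, -0.37 and 0.35 on the log2 scale in KO1, KO2 and KO3, Eef2k RNA by -1.30, 0.31 and 0.92, and Eef1b2 TE by -0.28, 0.15 and -0.13. Groups of 2 replicates are too small to test a single library as an outlier.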

How the results depend on the processing

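Of 818 values of the 7 members under an alternative, 750 kept direction and side of the threshold, 30 lost and 11 gained a call, and 27 turned in direction, all from values that had not passed. Why values moved was not tested unless the alternative itself uses fewer samples or counts. Outside the ratios to Eef1g, the replicate block moved calls of members in single clones only for Eef1b2 TE in KO1 and Eef1e1 RNA in KO2 (adjusted p = 0.0388, edgeR). The clone differences that it moved are given in the results.

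Without a low-count filter, TE called 20 genes in KO1 and 19 in KO3 (11 and 12 with it, 2 in KO2). All transcripts gave 17 in KO1. At least 10 counts in every library gave 1 in KO2, 1 fit of all libraries 7 in KO3, and thinned libraries 1 in KO2 and 6 in KO3. The replicate block gave 58 in KO1 and 4 in KO2, with 1 member in KO1, and 247 genes and 3 members for the difference among clones. The lysate block gave 83 in KO1 and 4 in KO2, with 1 member in KO1 (Eef1b2, -0.27). DESeq2 called 18 in KO1 with 1 member and 5 in KO3 for TE, 3398, 1230 and 3431 genes for RNA in KO1, KO2 and KO3 (5376, 2346 and 5189 by edgeR), and 777, 284 and 1103 for footprints (2777, 1213 and 3179), with 1 member in KO2. Thinned libraries gave 1451, 521 and 1304 for footprints. For RNA in KO2, the replicate block called 2 members and an adjusted p under 0.1 called 3. Eef1g RNA in KO3 passed with DESeq2's size factors, with at least 10 counts in every library and with all transcripts (edgeR adjusted p from 0.0367 to 0.0489).

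Leaving out 1 replicate gave 4054 to 4719 RNA calls in KO1, 1390 to 2523 in KO2 (lowest without WT replicate 1, and 1480 without WT replicate 2) and 3766 to 4652 in KO3, with 4 to 6, 1 to 3 and 3 to 5 members. In KO2 the members gained were Eef1b2 (0.12) and Eef1a1 (-0.10) without KO2 replicate 2 and Vars (0.15) and Eef1e1 (-0.26) without KO2 replicate 1. Footprints gave 1381 to 2806 (lowest without KO1 replicate 1, and 1581 without WT replicate 1), 710 to 1060 (lowest without WT replicate 1) and 2279 to 2601, with 1 to 3, 1 and 2 members. TE gave 4 to 11, 1 to 2 and 2 to 6 genes and 0 members.

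Direction turned only in values that had not passed. Eef1b2 footprints in KO1 were 0.0026 with DESeq2's size factors, 0.0070 in 1 fit, 0.0165 with all transcripts and 0.00397 without a filter, and Eef1g footprints were -0.0038 with thinned libraries in KO1 and -0.0064 with all transcripts in KO2. With Eef1d by its transcript of most footprints, the values in KO2 were -0.28 (RNA, which then passed), -0.165 (footprints) and 0.12 (TE), RNA in KO1 was -0.45 and passed, and TE in KO3 was 0.02. Without 1 replicate, footprints ran from -0.057 to 0.058 (Eef1b2, KO1), -0.053 to 0.066 (Eef1g, KO1), -0.086 to 0.046 (Eef1a1, KO2), -0.47 to 0.31 (Eef2k, KO2), -0.094 to 0.098 (Eef1g, KO2) and -0.17 to 0.0032 (Vars, KO3). TE ran from -0.10 to 0.0707 (Eef1a1) and -6.26 to 0.25 (Eef2k, the lowest from a fit whose only KO1 footprint count is 0, so that it depends on the prior count and is no bound) in KO1, from -1.01 to 0.30 (Eef2k), -0.075 to 0.015 (Eef1d), -0.0466 to 0.15 (Eef1a1), -0.10 to 0.15 (Eef1g), -0.0445 to 0.26 (Eef2) and -0.10 to 0.06 (Vars) in KO2, and from -0.91 to 0.41 (Eef2k) in KO3.

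For the ratios to Eef1g among the 4 lines, calls were made on the p adjusted over the ratios. Eef1a1 as denominator gave an exact permutation p of 0.019 (Eef1b2 RNA), 0.0286 (Eef1a1 RNA, here Eef1g to Eef1a1), 0.019 (Eef1b2 footprints), 0.00952 (Eef1d footprints) and 0.0381 (Eef1g to Eef1a1 footprints), which passed, and 0.0476 (Vars footprints), which did not. Vars as denominator, chosen after the data were seen, gave 0.00952 (Eef1e1 RNA), 0.019 (Eef1b2 footprints) and 0.019 (Eef1d footprints), which passed. The replicate block gave 0.0286 for Eef1a1 RNA and 0.00952 for Eef1e1 RNA, and Eef1d by the transcript with exon 5 gave 0.0286 for footprints, which passed. The depth of KO1 replicate 2 limits footprint and TE values of KO1, and low counts limit those of Eef2k in all clones.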
